A study of Mus musculus with 12 samples.

Results

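Edn1, which encodes the precursor of endothelin-1, and Ptgs2, which encodes the inducible prostaglandin synthase COX-2, were described in mouse kidney RNA read by a targeted panel. They are 2 of the 770 genes on that panel, and were taken by gene name. Both were chosen by their levels and group differences in these same 12 samples, so their own values are given as a description, with no p-value, and support nothing further. Animals lacking Aim2 (KO), a sensor of double-stranded DNA in the cytosol that assembles an inflammasome, were compared with Aim2 wild-type animals (WT). The groups were KO NTS and WT NTS, given nephrotoxic serum and analysed at day 9, and KO control and WT control, left untreated, with 3 mice in each. The serum is used to provoke an antibody-driven inflammation of the glomeruli. All 12 mice were female and 8 to 10 weeks old. The KO mice are described as B6 and the WT mice as F1 littermates, and any difference in strain background cannot be told apart from genotype. Which Aim2 allele the KO mice carry is not stated in the labels, and Aim2 itself was not analysed here. The comparisons address how each gene's kidney level differed after serum in each genotype, between genotypes without serum, and between genotypes after serum.

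Endothelin-1 is a short peptide cut from its precursor by endothelin-converting enzymes. Endothelial cells are its best known source, and kidney epithelial and mesangial cells also make it. Through the endothelin A receptor it constricts vessels and contracts mesangial cells, while the B receptor on endothelium leads to nitric oxide release. COX-2 turns arachidonic acid into prostaglandin H2, from which other enzymes make prostaglandin E2, prostacyclin and thromboxane. In the kidney COX-2 is made without injury in the macula densa and in medullary interstitial cells, where its products support renin release and blood flow, and it is induced by inflammatory signals in many cell types.

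The stretches around the starts of both genes are shown as a description only, and their part in the gene levels was not tested. They come from RefSeq (GRCm38.p6) and cover 250 bases before and 50 bases after each gene's start, read 5′ to 3′ on the gene's own strand. The Edn1 window is chr13:42301226-42301525 and the Ptgs2 window is chr1:150099781-150100080, both on the plus strand. Capitals mark matches to the motifs searched.
Edn1: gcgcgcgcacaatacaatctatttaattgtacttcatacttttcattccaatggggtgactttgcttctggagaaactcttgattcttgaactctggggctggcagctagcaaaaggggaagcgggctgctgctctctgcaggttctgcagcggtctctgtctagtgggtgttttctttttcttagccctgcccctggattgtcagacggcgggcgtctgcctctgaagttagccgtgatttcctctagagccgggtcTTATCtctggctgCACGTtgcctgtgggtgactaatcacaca
Ptgs2: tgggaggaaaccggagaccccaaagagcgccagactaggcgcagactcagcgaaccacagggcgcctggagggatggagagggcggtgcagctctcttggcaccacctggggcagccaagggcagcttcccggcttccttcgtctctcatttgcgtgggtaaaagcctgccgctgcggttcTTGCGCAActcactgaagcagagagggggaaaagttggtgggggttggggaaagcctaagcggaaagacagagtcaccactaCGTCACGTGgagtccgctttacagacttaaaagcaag

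Both strands were searched for 8 motifs, and the share of all 32851 windows of this length that held each motif is given beside it. The Edn1 window held the letters bound by GATA factors (GATAA, 25.4% of windows) on the minus strand, with the first base 9 bases after the start. It also held the core that hypoxia-inducible factors bind (ACGTG, 19.6%), 22 bases after the start on the minus strand. In the Ptgs2 window a match for C/EBP factors (TTGCNNAA, 10.8%) began 69 bases before the start. The core of the cyclic AMP response element (TGACG, 20.8%) began 14 bases after the start, on the minus strand. It ran into an E-box (CACGTG, 7.15%) that began 17 bases after the start and that contains the hypoxia core. Neither window held the AP-1 letters (TGANTCA, 7.81%), the TATA box (TATAAA, 13.6%) or the kappa B motif (4.51%). G and C made up 51.3% of the Edn1 window and 59.3% of the Ptgs2 window, against a median of 52.7% over all windows. A match describes letters only, and a window without a match may still hold a site spelled otherwise. Positions count from the RefSeq start, and bases outside the windows were not searched.

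Edn1 was highest in KO kidneys given serum. The authors' signal, scaled on housekeeping genes, was 603.74, 846.47 and 838.12 in the 3 KO NTS mice and 392.09, 152.23 and 116.38 in the 3 WT NTS mice. The untreated groups had 109.48, 69.25 and 71.74 in KO control mice and 161.43, 80.05 and 131.94 in WT control mice. Every KO NTS mouse lay above all 9 other mice, also when samples were centred on their median, quantile normalized or scaled on the positive control probes. How many genes had this pattern was not counted. As deposited, KO NTS lay entirely above KO control in 51.7% of all genes and entirely above WT NTS in 39.1%. The group means were 763 ± 138 in KO NTS, 220 ± 150 in WT NTS, then 83.5 ± 22.5 in KO control and 124 ± 41.2 in WT control (SD, n = 3 each). Among the other groups, WT NTS overlapped WT control, and KO control overlapped WT control. WT NTS lay just above KO control on the deposited and the quantile scales and overlapped it under median centring and positive control scaling. How many genes had WT NTS entirely above KO control was not counted. Each sample also has a floor, its lowest gene value, which equalled the geometric mean of its negative control probes. Edn1 was 4.67 to 65.8 times that floor.

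**Figure D1:**
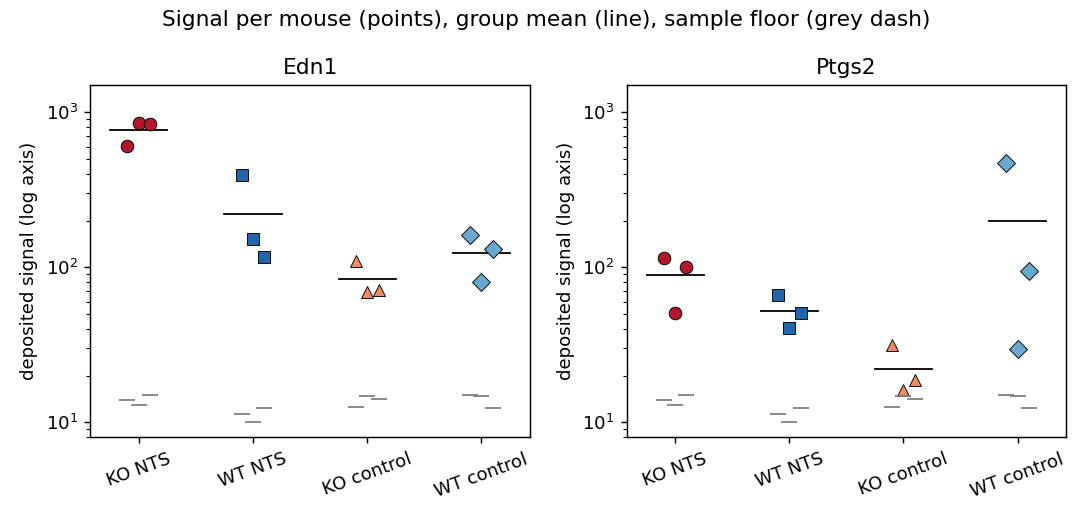
Deposited signal of Edn1 (left) and Ptgs2 (right) on a log axis in each of 12 kidneys, 3 per group; lines are group means and grey dashes each sample's floor. All 3 KO NTS mice are the highest for Edn1, while for Ptgs2 WT control 1 (469.98) is the highest and KO control mice lie nearest the floor.

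The Ptgs2 probe gave a different order of groups. Its signal was 115.04, 50.75 and 100.69 in KO NTS mice and 66.0, 40.66 and 50.43 in WT NTS mice. Untreated KO mice had 31.75, 16.23 and 18.72, whereas the WT control mice numbered 1 to 3 had 469.98, 29.9 and 95.29. The WT control group spanned the values of every other group except the lowest ones of KO control, and 1 mouse set its mean. Means were 88.8 ± 33.8 in KO NTS, 52.4 ± 12.8 in WT NTS, then 22.2 ± 8.34 in KO control and 198 ± 237 in WT control (SD, n = 3 each). KO NTS and WT NTS both lay above KO control under all 4 scalings, although the gap between KO NTS and KO control shrank to a log2 value of 0.03 under median centring and 0.01 under quantile normalization, against 0.66 as deposited. As deposited, 51.7% of all genes had KO NTS entirely above KO control. The share with WT NTS entirely above KO control was not counted. For Ptgs2, KO NTS overlapped WT NTS, and both overlapped WT control. KO control mice 2 and 3 were 1.10 and 1.32 times their floor, so folds against that group have an uncertain size. The SD of Ptgs2 between mice of a group was 1.08 on the log2 scale, which ranked 6 among 677 tested genes, against 0.57 for Edn1 and a median of 0.34.

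Differences were taken from a limma fit on log2(signal + 1) over all 12 samples and all 677 genes that reached a signal of 20 in at least 3 samples. Both members passed that filter. Standard errors (SE) come from that fit, and folds on this scale understate those of low genes. The comparisons share groups (KO NTS enters 2 direct comparisons and so does each control group), so they are not independent of each other.

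In KO kidneys after serum, Edn1 was 9.13-fold its level in untreated KO kidneys, a log2 difference of 3.19 with an SE of 0.41. It ranked 15 of 677 from the highest difference. The median over all genes was 0.42, 48.2% of genes passed an adjusted p of 0.05 and 51.7% had KO NTS mice that all lay above all KO control mice. Ptgs2 was 3.80-fold, a log2 difference of 1.93 with an SE of 0.74, and ranked 73. Median centring lowered these log2 differences to 2.42 for Edn1 and 1.16 for Ptgs2.

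In WT kidneys the serum groups stood closer to their controls. Edn1 was 1.59-fold in WT NTS, with a log2 difference of 0.67 and an SE of 0.41, and it was 0.15 without WT NTS 1. The mouse WT NTS 1 had 2.93 times the Edn1 signal of the other WT NTS mice, which ranked 22 among all genes for that mouse. Ptgs2 was 0.47-fold in WT NTS, with a log2 difference of -1.10 and an SE of 0.74. Without WT control 1 that value was -0.06, and without WT control 2 it was -2.02. Across all genes the median log2 difference was 0.08, 7.98% of genes passed the test and 12.6% had WT NTS entirely above WT control.

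Without serum, Edn1 in KO kidneys was 0.69-fold its WT level, a log2 difference of -0.54 with an SE of 0.41, between -0.83 without WT control 2 and -0.33 without WT control 1. Ptgs2 was 0.20-fold, a log2 difference of -2.33 with an SE of 0.74, the lowest of the 677 genes. Without WT control 1 it was -1.29. Ptgs2 overlapped between the control groups as deposited, and KO control lay entirely below WT control under median centring. In limma 0% of genes passed an adjusted p of 0.05 between untreated KO and WT kidneys (57 had an unadjusted p under 0.05). In 7.09% of genes the KO control mice all lay above the WT control mice, and the share entirely below was not counted. Leaving out WT control 2 raised the number that passed to 22.

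After serum, Edn1 in KO kidneys was 3.93-fold its level in WT kidneys, with a log2 difference of 1.98 and an SE of 0.41. It ranked 22 of 677, and was between 1.62 without WT NTS 3 and 2.49 without WT NTS 1. The median over all genes was 0.45, 33.5% of genes passed the test, and in 39.1% KO NTS lay entirely above WT NTS. Ptgs2 was 1.62-fold, with a log2 difference of 0.70 and an SE of 0.74, and ranked 249. It was 1.05 without KO NTS 2, 0.11 under median centring and -0.01 under quantile normalization, so its direction depended on the scaling.

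The serum difference in KO minus that in WT (the interaction) was 2.52 on the log2 scale for Edn1, with an SE of 0.58, and 3.02 for Ptgs2, with an SE of 1.05. They ranked 12 and 4 of 677 genes, with a median over all genes of 0.38 and 10.3% of genes past the test. The parts of that value differed between the 2 genes. For Edn1 the difference was 3.19 in KO and 0.67 in WT, both above 0. For Ptgs2 it joined 1.93 in KO with -1.10 in WT, and without WT control 1 the interaction was 1.99. Leaving out any 1 of 9 mice left 0 genes past the test for the interaction.

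**Figure D2:**
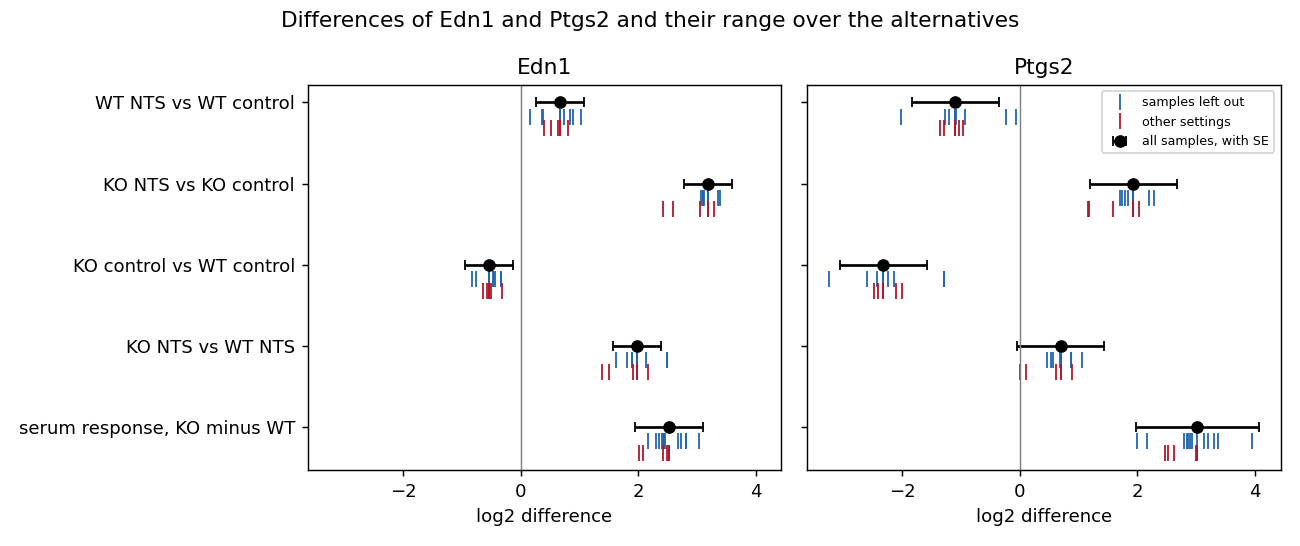
Log2 differences of Edn1 (left) and Ptgs2 (right) in 5 comparisons; black points are the fit on all samples with SE, blue ticks the values with samples left out and red ticks those under other settings. Edn1 stays well above 0 in KO NTS against KO control and against WT NTS, whereas Ptgs2 against WT NTS and in WT after serum reaches close to 0.

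Mouse 1 had the highest signal of both genes in WT NTS, KO control and WT control, that is in 3 of 4 groups. In KO NTS the order differed, since KO NTS 2 had the most Edn1 (846.47) and the least Ptgs2 (50.75). How often other pairs of genes share their highest mouse was not counted. Deviations of the 2 genes from their group means had a Pearson's r of 0.515 over the 12 samples. In WT NTS 1 the Ptgs2 signal was 1.45 times that of the other WT NTS mice, which ranked 289 among all genes. WT control 1 differed from its group more in Ptgs2 than in Edn1. Its Ptgs2 signal was 8.63 times that of the other WT control mice, the third largest such ratio after Lamb3, a laminin chain (16.9), and Cdkn2b, a cell cycle inhibitor (9.16). Its Edn1 signal was 1.56 times theirs and ranked 63. What set that mouse apart was not tested.

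**Figure D3:**
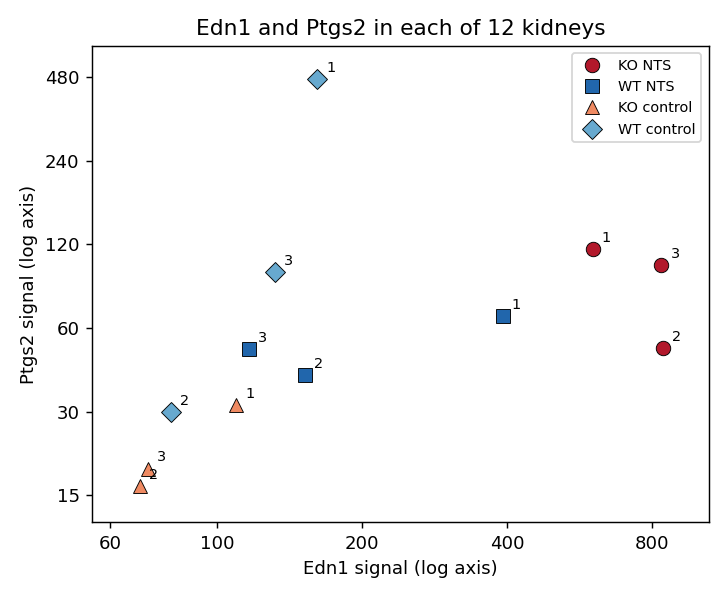
Ptgs2 signal against Edn1 signal, both on log axes, in each of 12 kidneys, with replicate numbers beside the points. KO NTS mice lie to the right at high Edn1, and WT control 1 lies alone at the top with 469.98 for Ptgs2 and 161.43 for Edn1.

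The genes whose log2 signal ran most like that of Edn1 over the 12 samples were Ifngr1, a chain of the interferon gamma receptor (Pearson's r = 0.99), Birc3, an inhibitor of cell death (0.97), the transcription factors Stat3 (0.97) and Myc (0.97), and the leukocyte receptor Cd84 (0.97). The coefficients of deviations from the group means were 0.97 for Ifngr1, 0.81 for Birc3, 0.84 for Stat3, 0.85 for Myc and 0.89 for Cd84. Ifngr1 had a mean of 1339 ± 57.4 in KO NTS, 735 ± 161 in WT NTS, then 586 ± 57.7 in KO control and 613 ± 86.4 in WT control (SD, n = 3 each). For Ptgs2 the nearest were Cdkn2b (0.91), Nfkbia, the inhibitor of NF-kappa B (0.90), Wnt4, a Wnt ligand (0.90), Crabp2, a retinoic acid carrier (0.85), and Itga2, an integrin chain (0.84). Without WT control 1 these were 0.79 for Cdkn2b, 0.86 for Nfkbia, 0.76 for Wnt4, 0.65 for Crabp2 and 0.74 for Itga2. The nearest genes over those 11 samples were Nfkbia, F2rl1, Rictor, Stc1 and Tnfsf8, with Nfkbia the shared member. These coefficients describe the 12 samples, which share their group means and their scaling.

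Other genes of vessel tone were read from a list of 70, of which 14 were on the panel and 12 passed the filter on low values (Pla2g2a and Arg1 did not). None of the 7 other endothelin genes listed was among the panel's genes, so no receptor or converting enzyme of Edn1 could be set beside it. Against KO control 1 of the 12 rose and 2 fell in KO NTS, 48.2% of all genes having changed. These counts were 0 and 4 under median centring and under quantile normalization. Against WT NTS it was again 1 that rose and 2 that fell, and 33.5% of all genes changed. There the counts were 0 and 4 under median centring, 0 and 2 under quantile normalization, and 2 and 0 with positive control scaling. In WT NTS against WT control and between the control groups 0 passed limma's test, and the smallest adjusted p values were 0.103 and 0.575. The median log2 difference of the 12 was 0.20 in KO NTS against KO control and -0.05 in KO NTS against WT NTS, against 0.42 and 0.45 over all genes. Both medians changed sign with the scaling, to -0.57 against KO control under median centring (-0.53 under quantile normalization) and to 0.15 against WT NTS with positive control scaling (-0.65 under median centring).

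On the prostanoid side, Ptger4, the EP4 receptor of prostaglandin E2, had 309.73, 299.07 and 263.71 in KO NTS mice, against 140.14, 99.55 and 143.48 in KO control and 221.28, 108.44 and 173.6 in WT NTS. No KO NTS mouse overlapped either group. Over all genes, KO NTS lay entirely above KO control in 51.7% and entirely above WT NTS in 39.1%. Ptger4 rose 2.29-fold over KO control (adjusted p = 0.00249) and was 1.80-fold WT NTS (adjusted p = 0.0251) in limma. The first call was lost under median centring and quantile normalization, and the other in 8 of 22 alternatives. Tbxas1, thromboxane synthase, had a log2 difference of -0.20 in KO NTS against KO control (adjusted p = 0.714) and -0.34 against WT NTS (adjusted p = 0.51).

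Among the other mediators, Vegfa, a growth factor of endothelium, had 586.04, 576.55 and 543.72 in KO NTS mice, against 904.52, 779.93 and 1029.96 in WT NTS and 955.8, 936.01 and 992.95 in KO control. The KO NTS mice were the lowest of these 3 groups, with no overlap. The share of all genes with KO NTS entirely below was not counted. In limma 58 of the 677 genes fell against KO control and 16 against WT NTS. In limma Vegfa fell by 0.76 on the log2 scale against KO control (adjusted p = 0.00104), a call kept in all 22 alternatives, and by 0.66 against WT NTS (adjusted p = 0.00621), a call lost with positive control scaling. Its serum difference in KO minus that in WT was -0.90 (adjusted p = 0.0351), lost in 10 of 21 alternatives.

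Ren1, renin, had 3529.01, 1052.69 and 673.18 in KO NTS mice, against 5764.88, 3421.05 and 3623.28 in WT NTS. The groups overlapped through KO NTS 1. The log2 difference was -1.61 (adjusted p = 0.0497 in limma), which was lost in 15 of 22 alternatives. Some mouse strains carry Ren2, a near-identical copy of Ren1, so the probe's signal may hold both where strains differ. In the control groups Ren1 was 3256.05, 1524.67 and 2864.49 in KO, against 9181.72, 4073.68 and 14682.78 in WT, with a log2 difference of -1.76 (adjusted p = 0.575).

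Nos2, the inducible nitric oxide synthase, was low throughout, with 25.57, 21.59 and 18.22 in KO NTS mice and 38.32, 41.12 and 33.27 in KO control mice. It fell by 0.77 on the log2 scale (adjusted p = 0.0168 in limma), a call lost in 3 of 21 alternatives. Arg2, an arginase that shares the substrate of nitric oxide synthases, had 1488, 1136 and 886 in KO NTS mice against 865, 153 and 599 in WT NTS. The groups did not overlap, and in 39.1% of all genes KO NTS lay entirely above WT NTS. The log2 difference of Arg2, 1.41, missed the threshold (adjusted p = 0.0741 in limma). The remaining members missed the threshold in every comparison. Against KO control and against WT NTS their log2 differences in KO NTS were 0.44 and -0.59 for Adm, the vasodilator adrenomedullin, and -0.97 and 0.56 for Aplnr, the apelin receptor. They were 0.60 and -0.04 for Entpd1 and 0.58 and -0.07 for Nt5e, which together turn ATP into adenosine. The adenosine receptor Adora2a had 0.16 and 0.70, and Thbd, thrombomodulin, 0.25 and -0.34.

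**Figure D4:**
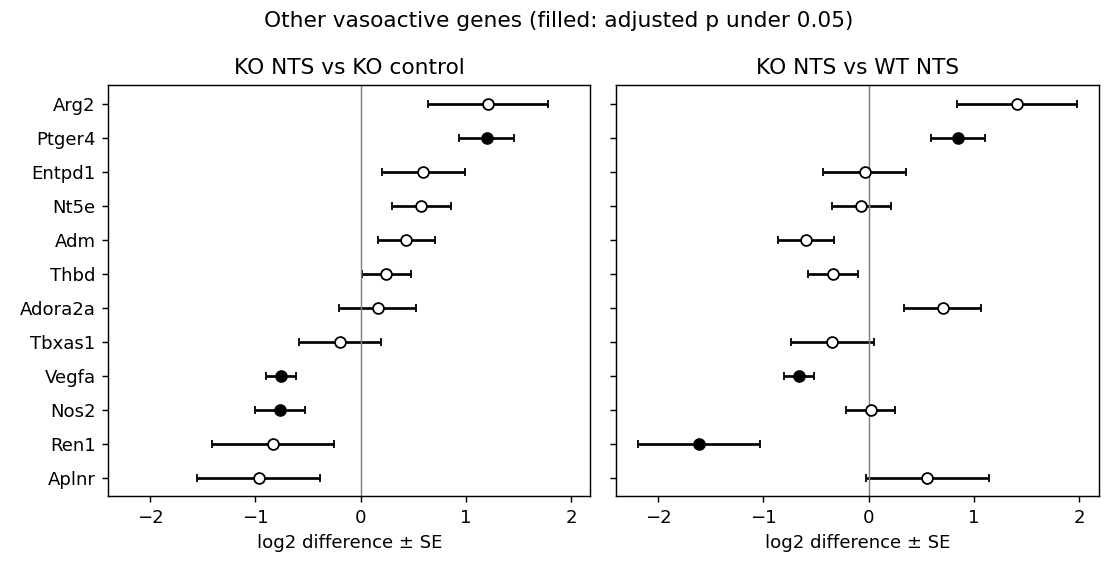
Log2 difference with SE of 12 other genes of vessel tone in KO NTS against KO control (left) and against WT NTS (right); filled points passed an adjusted p of 0.05. Ptger4 is above 0 and Vegfa below 0 in both panels.

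Cytokines, receptors and transcription factors tied to the regulation of Edn1 or Ptgs2 were read from a list of 28. Of these, 19 were on the panel and 17 passed the filter. Ifng was at the floor in every group, Il6 in both control groups and Il1a in KO control. Of the 17, 12 rose and 0 fell in KO NTS against KO control, where 48.2% of all genes changed. Atf3, a stress-induced factor, rose 7.76-fold (adjusted p = 0.000147), Myc 5.66-fold (adjusted p = 0.000195) and Tlr2, a receptor of bacterial lipoproteins, 6.63-fold (adjusted p = 0.000244). Against WT NTS 11 rose and 0 fell, where 33.5% of all genes changed. Fosl1, an AP-1 subunit, rose 3.29-fold (adjusted p = 0.005), Tlr2 4.07-fold (adjusted p = 0.00505) and Nfkb1, a subunit of NF-kappa B, 2.05-fold (adjusted p = 0.00577), all in limma. Fosl1 was 73.75, 28.07 and 62.33 in KO NTS mice and 17.47, 14.6 and 12.35 in WT NTS mice, the last of them at the floor. In WT NTS against WT control only Atf3 passed. Under median centring 8 rose and 1 fell against KO control, and 5 rose against WT NTS (6 under quantile normalization). The list's median log2 difference was 1.28 against KO control and 1.10 against WT NTS, and 0.51 and 0.50 under median centring. Without WT NTS 3, 6 rose against WT NTS.

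The RNA came from whole kidney, where fewer cells of a type and less RNA per cell cannot be told apart. The 9 endothelial markers on the panel summed to 2969 to 5099 in KO NTS mice, 4252 to 5811 in WT NTS, then 5646 to 6661 in KO control and 5711 to 6682 in WT control, and none was at the floor throughout a group. Of the 8 tested, 1 fell against KO control (7 under median centring and 5 under quantile normalization), and 1 fell and 1 rose against WT NTS. Of all genes, 48.2% changed against KO control and 33.5% against WT NTS. Of the 677 genes, 269 fell against KO control under median centring and 214 under quantile normalization. Kdr, a VEGF receptor, fell in KO NTS against KO control (log2 difference -1.30, adjusted p = 0.0011) and against WT NTS (-0.90, adjusted p = 0.0156), the second of which was lost with positive control scaling and without WT NTS 3 or KO NTS 3. Tie1 and Robo4, receptors of endothelium, had log2 differences of -0.46 (adjusted p = 0.0679) and -0.56 (adjusted p = 0.0856) against KO control, and Sele, an adhesion molecule, had 0.32 (adjusted p = 0.488) against WT NTS. Cdh5, the cadherin of endothelial junctions, was 1.34-fold WT NTS (adjusted p = 0.0466 in limma), a call lost in 15 of 22 alternatives, among them median centring, quantile normalization and the replicate block.

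Macrophage markers had their highest sums in KO NTS. The 15 of them summed to 7692 to 9563 in KO NTS mice, 2294 to 5310 in WT NTS, then 2328 to 2593 in KO control and 1730 to 2358 in WT control. In KO NTS 12 rose against KO control, where 48.2% of all genes changed, and 13 against WT NTS, where 33.5% did, with Itgam, an integrin of myeloid cells, at 7.20-fold (adjusted p = 0.000244) and 4.83-fold (adjusted p = 0.005). Against KO control the next smallest p values were those of the antibody receptor Fcgr1 (8.06-fold, adjusted p = 0.000244) and the complement chain C1qb (3.49-fold, adjusted p = 0.000244). Against WT NTS they were those of the mannose receptor Mrc1 (3.84-fold, adjusted p = 0.005) and of C1qa (2.29-fold, adjusted p = 0.00577). Under median centring 7 rose against WT NTS, and 10 rose and 2 fell against KO control. The 8 neutrophil markers summed to 433 to 588 in KO NTS, 227 to 384 in WT NTS, then 166 to 245 in KO control and 175 to 255 in WT control, with Ly6g at the floor in both control groups and Cxcr2 in WT control. Of the 6 tested, 4 rose against KO control (1 under median centring, where 1 fell), among them the calcium-binding S100a8 (3.04-fold, adjusted p = 0.00739) and S100a9 (3.52-fold, adjusted p = 0.00787) and the cytokine receptor Csf3r (1.81-fold, adjusted p = 0.0302). Fcgr3, an antibody receptor with near relatives that may share its signal, rose 4.17-fold against KO control (adjusted p = 0.000147) and was the 1 that rose against WT NTS (2.23-fold, adjusted p = 0.00584), where 0 rose under median centring and quantile normalization. The neutrophil count against WT NTS, 1 of 6, is below the 33.5% of all genes that changed there.

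Egf, an epithelial marker of the distal tubule, fell by 3.93 on the log2 scale against KO control (adjusted p = 7.39e-06) and by 2.58 against WT NTS (adjusted p = 0.00142). Fbp1, an enzyme of proximal tubule gluconeogenesis, was 0.32-fold its level in KO control (adjusted p = 0.00044) and 0.38-fold that in WT NTS (adjusted p = 0.00505). Cdh1, the epithelial cadherin, was 2.07-fold KO control (adjusted p = 0.0277; 0 epithelial markers rose there under median centring and quantile normalization) and 2.97-fold WT NTS (adjusted p = 0.00699). The labels name the tissue as kidney, and these 3 epithelial markers, the ones on the panel of 18 listed, summed to 9656 to 17148 in KO NTS, 34400.0 to 48271 in WT NTS, then 58092 to 66887 in KO control and 40932 to 71838 in WT control. Pdgfrb, a receptor of mesangial cells and pericytes, was 1.99-fold KO control (adjusted p = 0.00542) and 2.44-fold WT NTS (adjusted p = 0.00505). Its call against KO control was lost under median centring. The other of the 2 mesangial and smooth muscle markers tested, Ren1, went the other way. Its log2 difference was -0.84 against KO control (adjusted p = 0.255) and -1.61 against WT NTS (adjusted p = 0.0497 in limma). Of 8 T cell markers tested 1, Cd4, rose against KO control (1.66-fold, adjusted p = 0.0445; 0 rose and 5 fell under median centring) and against WT NTS (2.44-fold, adjusted p = 0.00634), with WT NTS 2 and 3 at the floor. The call against KO control was lost in 8 of the 12 fits that left out 1 mouse. Against KO control 48.2% of all genes changed, and 269 of 677 fell under median centring. Against WT NTS 33.5% of all genes changed. Under median centring 2 T cell markers fell against WT NTS and 1 rose, where 97 of all genes fell and 77 rose. The next smallest p values of this list belonged to Cd3d (log2 difference 0.42, adjusted p = 0.254) and Cd28 (-0.46, adjusted p = 0.315) against KO control, and to Lck (0.41, adjusted p = 0.244) and Cd5 (0.32, adjusted p = 0.425) against WT NTS. The median log2 differences against KO control and WT NTS were 1.80 and 1.20 for the tested macrophage markers, 1.23 and 0.80 for those of neutrophils, -0.48 and -0.01 for those of endothelium and 0.15 and -0.003 for those of T cells, with 0.42 and 0.45 over all genes. Under median centring the macrophage medians were 1.03 and 0.60 and those of neutrophils 0.46 and 0.21, and under quantile normalization the neutrophil medians were 0.52 and 0.12. Against WT NTS the endothelial and T cell medians were both 0.19 under positive control scaling and -0.60 under median centring, so they had no settled direction, and against KO control under median centring the T cell median was -0.62 and the endothelial median -1.25. The part of these cell types in the levels of Edn1 and Ptgs2 was not tested.

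**Figure D5:**
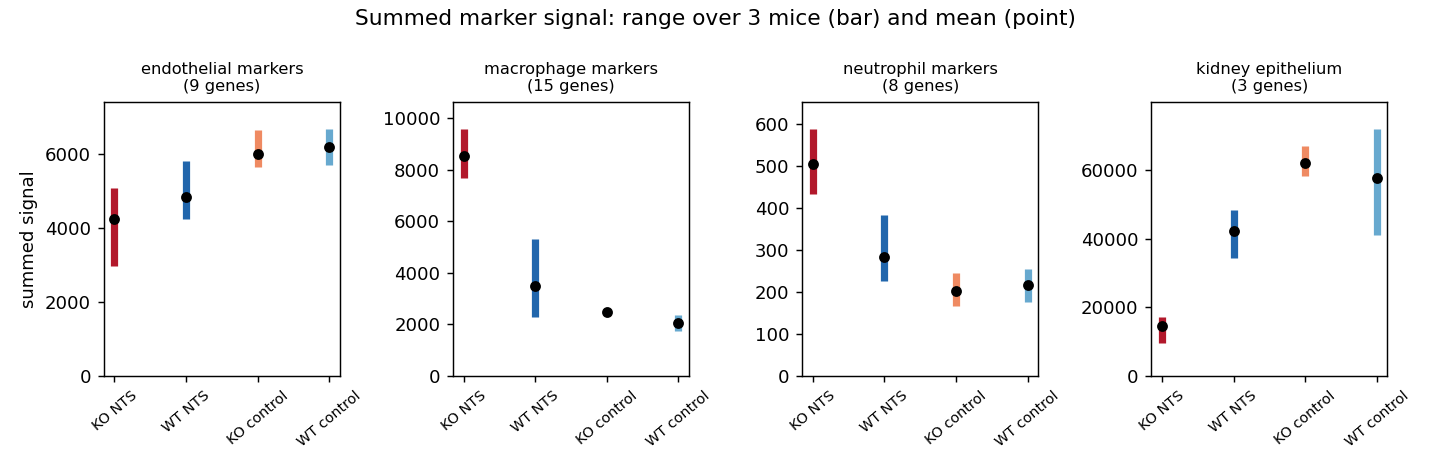
Summed deposited signal of 4 marker lists in each group of 3 mice; bars span the lowest to the highest mouse and points are means. Macrophage sums are highest in KO NTS (7692 to 9563), and epithelial sums are lowest there.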

How the data were processed

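Total RNA from the kidneys of 12 mice was used, and the instrument is not stated in the labels. The authors deposited a signal for each gene, already scaled: the 20 housekeeping genes had a geometric mean of 380.1, or 384.2 in KO control 3, and no value was under a floor of 10.02 to 15.11 per sample. Depth is unknown, so no count model was run, and precision is limited by having 3 mice per group. Every one of the 12 sample columns was mapped (0 others), and the 2 deposited tables held equal values.

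A limma 3.58.1 model (R 4.3.3) on log2(signal + 1) had 1 mean per group and a variance trend. It covered 677 genes, after 93 that did not reach 20 in 3 samples were dropped. Its two-sided p-values were adjusted across these genes (Benjamini-Hochberg) in 5 comparisons, with a threshold of 0.05. The steps were tested on simulated data. Members, lists, tests and named genes were chosen with earlier results of these data known. Named were both members, every tested gene of vessel tone, the genes with the smallest p of each other list (up to 3 in KO NTS against KO control and up to 3 against WT NTS), and the 5 genes most like each member by Pearson's r. Other genes in the text were chosen after their values were seen. The design text gives 3 mice per group. Replicate numbers were not taken as pairs, since the deviations of same-numbered samples correlated between -0.298 and 0.395. Alternatives were another pseudocount, 2 filters, median centring, quantile and positive control scaling, no trend, a replicate block, fits on the compared groups alone, and each sample left out. Leaving out WT control 1 and WT NTS 1 together was chosen after seeing the data.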

Additional observations from a re-analysis of the deposited data

Results flagged for a closer look

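The response of Vegfa to serum differed between genotypes, by a test of the difference itself: the KO difference minus the WT difference was -0.897 on the log2 scale (adjusted p = 0.0351 in limma). Every KO NTS mouse was below every KO control mouse, a pattern whose share over all genes was not counted. WT NTS (904.52, 779.93 and 1029.96) overlapped WT control (713.56, 871.83 and 873.3). The call was lost in 10 of 21 alternatives, 9 of which left out 1 mouse.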

How the results depend on the processing

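The differences of Edn1 kept their sign in all alternatives. In KO NTS against KO control its log2 difference was 3.19, and 2.42 under median centring and 2.60 under quantile normalization. In KO NTS against WT NTS it was 1.98, and 1.38 under median centring. The sign of Ptgs2 turned once, in KO NTS against WT NTS under quantile normalization (-0.01). The cause was not tested.

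Of all genes, 54 passed the test in WT NTS against WT control, 2 with only those groups in the fit, 27 without WT control 1 and WT NTS 1 together, and 9 to 94 with each sample left out in turn. Between the control groups 0 passed, and 0 to 22 with samples left out. In KO NTS against WT NTS 227 passed, 141 with only those groups, 345 without both named mice, and 129 to 329 with samples left out. For the interaction 70 passed, 20 under median centring, 46 under quantile normalization, 1 with positive control scaling, 44 with no variance trend, 212 without both named mice, and 0 to 207 with samples left out.

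The scaling set the split of calls. In KO NTS against KO control 268 rose and 58 fell as deposited, 134 and 269 under median centring, 159 and 214 under quantile normalization, and 263 and 36 with positive controls. In KO NTS against WT NTS the splits were 211 and 16, 77 and 97, 90 and 97, and 250 and 3. In WT NTS against WT control they were 37 and 17, 31 and 47, 30 and 21, and 34 and 5, and for the interaction 65 and 5, 12 and 8, 20 and 26, and 0 and 1. The median of all genes in KO NTS against KO control was 0.42, -0.35, -0.19 and 0.53 under these 4 scalings.

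A replicate block left the differences of both members at the same values (3.19 for Edn1 in KO NTS against KO control), and 39 genes passed in WT NTS against WT control. The numbers were not taken as pairs. Signal near the floor limits Ptgs2 in KO control.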

Other observations

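WT control 1 stood apart from the other WT control mice in further genes: Cxcl1, a neutrophil chemokine, was 114.63 there against 14.72 and 17.8, Itga2 was 149.02 against 17.36 and 30.37, and Ccl28 was 943.77 against 60.76 and 416.76. Its correlation with the other WT control mice over all tested genes was 0.95 and 0.978. That of WT control 2 was 0.95 and 0.979, so these correlations did not single out WT control 1. WT NTS 1 had 555.14 of Ccl2, a monocyte chemokine, against 133.46 and 98.92 in the other WT NTS mice, and 1593.59 of Vcam1, an adhesion molecule, against 364.94 and 323.92. These genes were chosen after their values were seen.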
